A study of Mus musculus with 3 samples.

Results

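TRBV2, the mouse Vβ gene known as Vβ4 in the older naming, was described across the β chain clonotypes of CD4, CD8 and DN T cells. Its members were all clonotypes whose best V gene was TRBV2 and whose best J gene was a TRBJ gene, and a clonotype was 1 unique CDR3 nucleotide sequence in 1 library. They numbered 3321 of the 167967 TCRβ clonotypes, with 1857 in the CD4 library, 826 in the CD8 library and 638 in the DN library. Taking equal sequences in different libraries as 1, there were 3158 distinct TRBV2 rearrangements. The gene was chosen by its larger share in CD4 T cells, so the shares themselves are given as a description without a test.

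The 3 libraries came from the spleen of 1 male MRL.lpr mouse aged 16 weeks. MRL.lpr mice carry the recessive lpr mutation of Fas, a death receptor gene, and accumulate TCRαβ T cells that lack both CD4 and CD8, the DN T cells. From each sorted subset, mRNA of 1000000 cells was used for 1 TCRα/β library, and no other strain, treatment or age was compared. The sort was the only basis for the name of a subset, since a TCR library holds no CD4 or CD8 transcript against which to check it. With 1 library per subset from 1 mouse there was no replicate check. Each test below therefore compares sets of clonotypes between these libraries, not the subsets in general. Intervals treat each read or clonotype as an independent draw and cover no difference between mice or libraries. The counts are PCR reads with no molecular identifiers in the tables, not counted molecules, so intervals on shares of reads can be too narrow.

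A β chain gene is assembled in the thymus when a D segment joins a J segment and a V segment then joins the DJ product, with bases trimmed and added at both junctions. The CDR3 spans these junctions and reads from a cysteine codon at the end of V to a phenylalanine codon in J, and it makes most of the contacts with the peptide on MHC. The CDR1 and CDR2 loops are encoded by V alone, and V genes are known to be used unequally by CD4 and CD8 T cells. Rearrangements that lose the reading frame yield no receptor, but their transcripts can persist beside a productive second allele. In the RefSeq record of GRCm38.p6, Trbv2 is a V segment of chromosome 6 (start 41047556, end 41047995, 440 bases), which lists Tcrb-V4 as a synonym and lies between Trbv1 and Trbv3, far upstream of Trbd1, the TRBJ1 genes, Trbd2 and the TRBJ2 genes.

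The CDR3 sequences of the most-read TRBV2 clonotypes are shown as examples for the results on length, clone size and sharing. Capitals mark the bases between the V start and the J end, both derived from the clonotypes themselves, and the names give the library and the rank by reads among TRBV2 clonotypes there. The first 17 bases common to TRBV2 rearrangements are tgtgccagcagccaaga. The 5 largest of the CD4 library were as follows.
CD4-1: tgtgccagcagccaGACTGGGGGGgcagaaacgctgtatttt
CD4-2: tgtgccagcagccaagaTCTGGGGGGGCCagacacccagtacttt
CD4-3: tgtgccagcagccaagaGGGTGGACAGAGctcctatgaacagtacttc
CD4-4: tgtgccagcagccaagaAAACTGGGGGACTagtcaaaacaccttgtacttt
CD4-5: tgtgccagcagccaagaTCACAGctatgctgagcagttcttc
The largest of the CD8 and DN libraries followed, and 5 of them ranked among the 10 largest in both, so they carry both names.
CD8-1: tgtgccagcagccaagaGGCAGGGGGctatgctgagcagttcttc
CD8-2/DN-1: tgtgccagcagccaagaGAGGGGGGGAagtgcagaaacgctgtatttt
CD8-3: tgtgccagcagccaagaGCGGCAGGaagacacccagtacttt
CD8-4/DN-6: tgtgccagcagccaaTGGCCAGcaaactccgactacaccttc
CD8-5/DN-7: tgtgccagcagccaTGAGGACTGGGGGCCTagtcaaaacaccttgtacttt
DN-2: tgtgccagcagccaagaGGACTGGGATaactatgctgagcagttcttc
DN-3/CD8-7: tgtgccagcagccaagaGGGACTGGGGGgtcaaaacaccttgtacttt
DN-4: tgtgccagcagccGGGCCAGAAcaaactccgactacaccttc
DN-5/CD8-10: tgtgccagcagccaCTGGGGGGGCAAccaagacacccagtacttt

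TRBV2 made up a larger share of the CD4 library than of the others, by reads and by clonotypes. It held 4313 of 133667 TCRβ reads in CD4 T cells, a share of 3.23% (95% Wilson interval 3.13 to 3.32). In CD8 T cells it held 1185 of 150874 reads, a share of 0.785% (0.742 to 0.831). In DN T cells it held 1986 of 194290 reads, a share of 1.02% (0.978 to 1.07). The order was CD4, then DN, then CD8, with 1 library each. In RNA of sorted pools, more cells with a clonotype and more RNA per cell cannot be told apart.

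Counted as clonotypes, where a large clone weighs no more than a small one, the shares were 4.14% in CD4 (3.96 to 4.33), 1.02% in CD8 (0.95 to 1.09) and 1.52% among DN T cells (1.41 to 1.64). The CD4 share of reads was 4.11 times that of CD8 and 3.16 times that of DN T cells. Among the 19 V genes with at least 100 clonotypes in every library, the ratio of CD4 to CD8 reads was the highest for TRBV2. Its ratio of CD4 to DN reads was the second highest, after TRBV20 at 7.76. TRBV2 was an uncommon gene in every library, ranking 12 by reads in CD4, 15 in CD8 and 14 among DN T cells.

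The DN share rested in part on few clones. Without the 10 largest TRBV2 clonotypes of each library, the read shares were 2.77% in CD4, 0.704% in CD8 and 0.709% among DN T cells, so that the DN and CD8 values were close to each other.

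**Figure D1:**
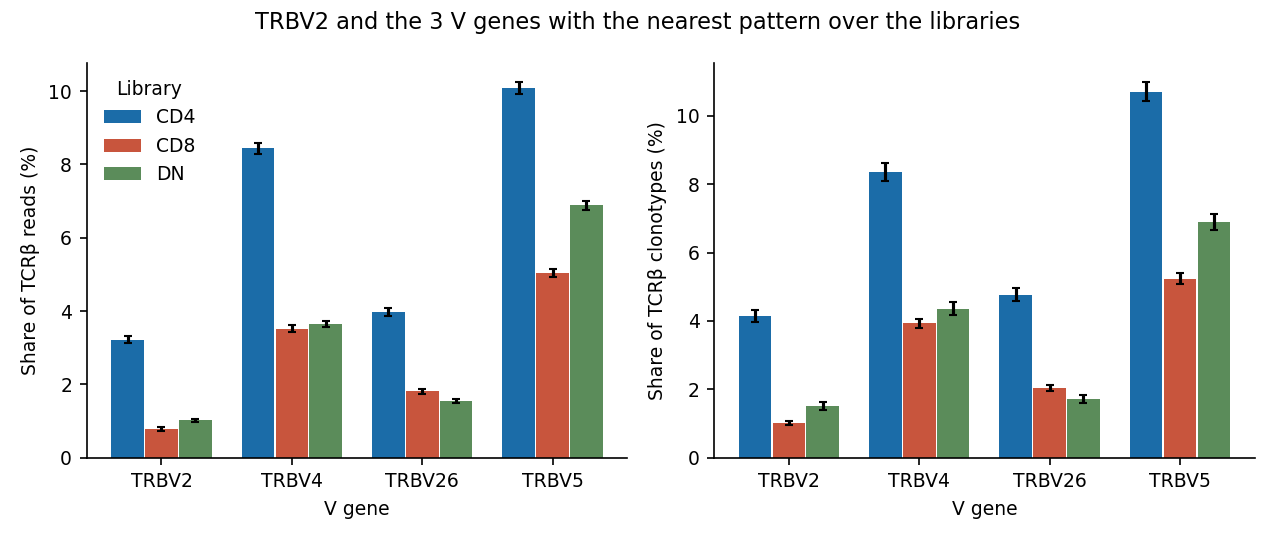
Share of TCRβ reads (left, %) and of TCRβ clonotypes (right, %) of TRBV2, TRBV4, TRBV26 and TRBV5 in the CD4, CD8 and DN libraries, 1 library each, with Wilson 95% intervals as error bars. The CD4 bar is the highest for each gene, and TRBV2 reads fall from 3.23% in CD4 to 0.785% in CD8.

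The V genes with the pattern most like TRBV2 over the 3 libraries were TRBV4, TRBV26 and TRBV5, known in the older naming as Vβ10, Vβ3 and Vβ1. Likeness was the Euclidean distance between log2 read shares, each gene centred over the 3 libraries, and it was 0.553 for TRBV4, 0.656 for TRBV26 and 0.877 for TRBV5. All 3 had their largest read share in CD4 T cells, at 8.44% for TRBV4, 3.97% for TRBV26 and 10.1% for TRBV5. Their CD4 to CD8 ratios were 2.39, 2.19 and 2.0, each below that of TRBV2. TRBV20, a gene with a CD4 to CD8 ratio of 3.55, stood farther off at a distance of 1.16 with a DN share (1.15%) below its CD8 share (2.52%).

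TRBV5 needs a separate remark. Its rearrangements begin with the same 17 bases as those of TRBV2, and no other of the 19 V genes shared more than 12. The CDR3 alone thus does not tell the 2 genes apart, and the authors' tables list each CDR3 once per library under a single best V gene. Of the CD4 TRBV2 clonotypes, 69 (3.72%, with 4.85% of the TRBV2 reads) had a CDR3 that another library listed under another V gene. The corresponding numbers were 26 (3.15%) in CD8 and 15 (2.35%) among DN T cells. Without them the read share in CD4 T cells was 3.08%. This check leaves out only clonotypes listed as TRBV2, so it can only lower the share, and none listed under TRBV5 were moved to TRBV2. In the CD8 library, 42 CDR3s of CD4 TRBV2 clonotypes were listed under TRBV5. The CD4 library so listed 15 CDR3s of CD8 TRBV2 clonotypes. The effect of this on the CD4 to CD8 ratio was not tested.

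TRBV2 clonotypes kept the reading frame less often in DN T cells than in the other subsets. In the CD4 library 1753 of 1857 clonotypes were in frame without a stop codon (94.4%, 93.3 to 95.4), in the CD8 library 769 of 826 (93.1%, 91.2 to 94.6) and in the DN library 554 of 638 (86.8%, 84.0 to 89.2). Most of the others had a frameshift, 100, 54 and 81 clonotypes, and few had a stop codon in frame, 4, 3 and 3. The DN share was below that of CD4 T cells by 7.57 percentage points (two-sided Fisher's exact test on clonotypes, Benjamini-Hochberg adjusted p = 1.15e-08). It was below that of CD8 T cells by 6.27 points (adjusted exact p = 0.00018). The CD4 and CD8 shares did not pass (1.30 points, adjusted exact p = 0.223). Over all V genes, 61.4% of such comparisons between libraries passed, and this comparison was added after the values were seen. Among clonotypes with at least 2 reads, CD8 (89.2%) and DN T cells (88.3%) did not pass and CD4 T cells (96.9%) stood above both.

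Against all other V genes of the same library, the side on which TRBV2 stood differed by library, and the CD4 call depended on the V genes compared. Its in-frame share was above theirs in CD4 T cells (94.4% against 92.1%, adjusted exact p = 0.000257). It was below theirs in CD8 T cells (93.1% against 95.1%, adjusted exact p = 0.0119) and in DN T cells (86.8% against 91.1%, adjusted exact p = 0.000521). Such a difference passed for 82.5% of the V gene and library pairs, so passing was the usual outcome. The pooled value holds V genes that were mostly out of frame, such as TRBV15 and TRBV24. With all V genes left out that had under 60% in frame over the 3 libraries together, TRBV2 was 1.59 points above the rest in CD4 and 2.38 and 5.08 points below it in CD8 and DN T cells, with adjusted exact p of 0.0118, 0.00343 and 2.47e-05. That set still held TRBV16, of which 28.3% was in frame in CD4 T cells. With all V genes left out that were under 60% in any library, the CD4 difference was 1.23 points and did not pass (adjusted exact p = 0.0564). Those of CD8 (-2.54 points, adjusted exact p = 0.00127) and DN T cells (-5.38 points, adjusted exact p = 7.31e-06) passed. In the order of the 19 V genes TRBV2 was rank 9 in CD4 and rank 13 in both CD8 and DN T cells.

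**Figure D2:**
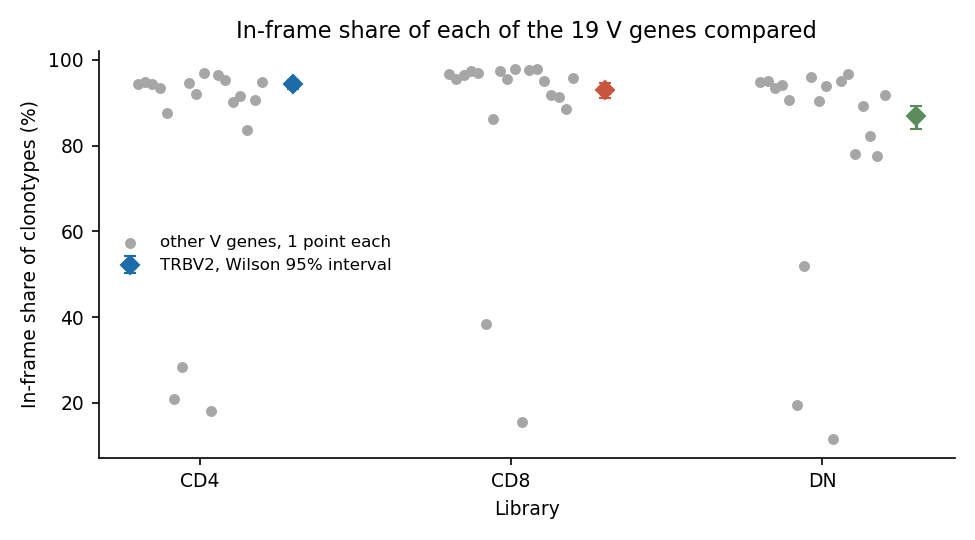
In-frame share of clonotypes (%) in the CD4, CD8 and DN libraries, with a grey point for each of the 18 other V genes compared and a coloured diamond for TRBV2 with its Wilson 95% interval. TRBV2 lies at 94.4% in CD4, 93.1% in CD8 and 86.8% among DN T cells, among the other V genes in each library.

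By reads, 96.6% of TRBV2 reads were in frame in CD4 T cells, 92.7% in CD8 and 91.2% among DN T cells. The most-read out-of-frame clonotypes had 9 reads in CD4, 7 in CD8 and 14 among DN T cells, and each was found in 1 library only. Their sequences are given because the first of them lies next to a large clone.
out-of-frame CD4: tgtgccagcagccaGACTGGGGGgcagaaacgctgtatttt
out-of-frame CD8: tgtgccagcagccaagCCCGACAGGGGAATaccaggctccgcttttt
out-of-frame DN: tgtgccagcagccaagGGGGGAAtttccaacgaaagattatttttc
The out-of-frame CD4 clonotype has 41 bases and equals CD4-1, of 42 bases and 156 reads, with 1 base left out. Counting every out-of-frame or stop-containing TRBV2 clonotype, 5 of 104 in CD4, 0 of 57 in CD8 and 1 of 84 in DN T cells were 1 inserted or deleted base from a TRBV2 clonotype of the same J gene with at least 10 times as many reads. For other V genes these shares were 4.85%, 2.40% and 8.32%. Leaving such clonotypes out moved the in-frame share in DN T cells to 87.0%.

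The CDR3 loops of TRBV2 were longer than those of other V genes in every library. In-frame TRBV2 clonotypes had a mean of 14.5 ± 1.47 residues in CD4 (SD over 1753 clonotypes), 14.8 ± 1.45 in CD8 (769) and 15.0 ± 1.48 among DN T cells (554). The other V genes had means of 13.9, 13.9 and 14.2 residues. Of the 19 V genes, TRBV2 had the longest mean in CD8 and in DN T cells and ranked 5 in CD4 T cells. TRBV5, with the same V start, had means of 14.5, 14.5 and 14.6 residues and ranked 3 in every library.

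Long loops, of 17 residues or more, made up 6.33% of in-frame TRBV2 clonotypes in CD4, 10.5% in CD8 and 12.6% among DN T cells. For other V genes these shares were 2.69%, 3.08% and 4.66%, with adjusted exact p of 3e-14, 4.93e-20 and 8.84e-13 by the same test. Short loops, of 11 residues or fewer, were rarer in TRBV2, at 2.45%, 1.56% and 1.44% against 5.21%, 6.07% and 4.45% (adjusted exact p of 8.6e-08, 7.01e-09 and 0.000324). All 6 tests passed for TRBV2, where 76.3% passed over all V genes. With at least 2 reads per clonotype, short loops in DN T cells no longer passed (adjusted exact p = 0.0621).

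Within TRBV2, long loops were rarer in CD4 than in CD8 T cells by 4.20 points (adjusted exact p = 0.00179) and than in DN T cells by 6.30 points (adjusted exact p = 3.16e-05). CD8 and DN T cells did not pass (2.10 points, adjusted exact p = 0.398). None of the 3 comparisons of short loops passed. These 2 calls of 6 stand beside a background of 41.2% over all V genes. Among clonotypes with at least 2 reads, 1 of the 6 passed.

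**Figure D3:**
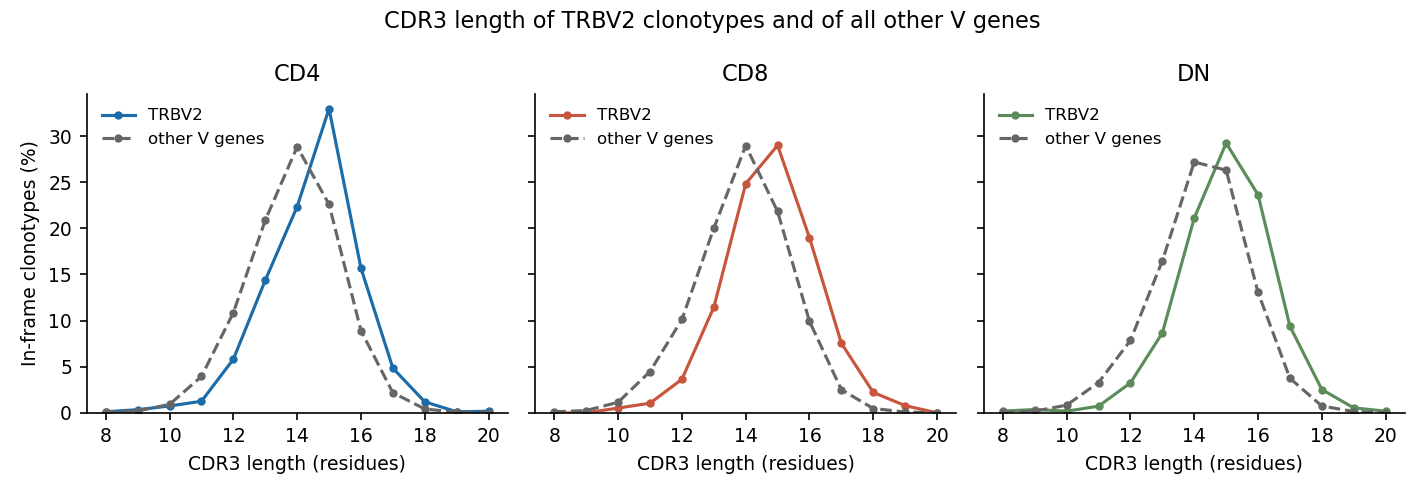
CDR3 length in residues (horizontal axis, 8 to 20) against the share of in-frame clonotypes (vertical axis, %) for TRBV2 (solid) and all other V genes (dashed) in each library. The TRBV2 curve peaks at 15 residues in each library and lies to the right of the dashed curve.

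Measured by a match to derived starts and ends, most of the extra length was in the V part of the loop. Matched base by base to the most common V start and J end, in-frame TRBV2 clonotypes kept a mean of 15.4 bases of the V start in CD4, 15.6 in CD8 and 15.6 among DN T cells. Other V genes kept 13.2, 13.5 and 13.6 bases of their own starts. All 17 bases were kept by 51.1% of TRBV2 clonotypes in CD4, 56.0% in CD8 and 59.9% among DN T cells, as in CD4-2 and CD8-2/DN-1 above. The stretch between V and J, which holds D and any added bases, was of similar length for TRBV2 and other V genes, with means of 10.2 and 10.5 bases in CD4, 10.8 and 10.3 in CD8, and 11.5 and 11.1 in DN T cells. Means of the J part rounded to 18 bases in every set. A base that is trimmed and added back by chance counts as kept in this match. The derived starts also differ in length, from 13 bases for TRBV4 to 19 for TRBV17. V bases past a derived start count in the stretch between V and J, so both measures depend in part on the length of the start.

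The bases caa in that start encode glutamine, and glutamine was the residue at position 5 of the loop in 77.0% of in-frame TRBV2 clonotypes in CD4, 81.1% in CD8 and 80.3% among DN T cells. Proline was next, at 7.19%, 6.76% and 6.5%. At positions 6 and 7, the middle of the loop that faces the peptide, a hydrophobic residue in at least 1 position was found in 21.9% of TRBV2 clonotypes of 11 to 18 residues in CD4 (20 to 23.9), 27.0% in CD8 (24.0 to 30.3) and 33.2% among DN T cells (29.3 to 37.2). The order was the same for other V genes, at 25.1%, 29.8% and 37.8%. Hydrophobic residues in both positions were found in 0.579%, 1.19% and 0.733% of TRBV2 clonotypes (10, 9 and 4 clonotypes). Other V genes had 1.16%, 1.25% and 2.01%, so on this measure the order differed. These residue shares were not tested. Position 6 is set in part by the V gene, because the start of 17 bases ends in ga within that codon. Codons that begin with ga encode aspartate or glutamate, neither counted as hydrophobic. The whole start was kept by 51.1% of in-frame TRBV2 clonotypes in CD4, 56.0% in CD8 and 59.9% among DN T cells. Its effect on the TRBV2 shares was not tested.

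TRBV2 was joined to J genes much as other V genes were. Of 36 comparisons (12 J genes in 3 libraries), 4 passed (11.1%), where 33.6% of the 684 comparisons over all V genes passed. TRBV2 has fewer clonotypes than many V genes, which lowers the number that can pass. Of these, 3 were in CD4 T cells. TRBJ1-2 was used by 157 of 1753 in-frame TRBV2 clonotypes in CD4 T cells (8.96%, 7.71 to 10.4), above the 6.05% of other V genes (adjusted exact p = 2.66e-05). TRBJ1-5 was used by 69 (3.94%), above 2.87% (adjusted exact p = 0.0405), and TRBJ1-1 by 136 (7.76%), below 10.1% (adjusted exact p = 0.0055). In DN T cells TRBJ1-3 was used by 7 of 554 (1.26%, 0.613 to 2.58), below 3.86% (adjusted exact p = 0.00242). No J gene passed in CD8 T cells, where TRBJ1-2, for example, was used by 4.55% of TRBV2 and 4.81% of other clonotypes.

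Between the libraries, 7 of 36 comparisons of TRBV2 passed (19.4%), near the 23.8% over all V genes. TRBJ1-2 was more frequent in CD4 (8.96%) than in CD8 (4.55%, adjusted exact p = 0.000947) and DN T cells (4.87%, adjusted exact p = 0.0104). TRBJ1-3 was rarer in DN T cells (1.26%) than in CD4 (5.82%, adjusted exact p = 3.06e-05) and CD8 T cells (4.42%, adjusted exact p = 0.00729). TRBJ2-7, the most used J gene of TRBV2 in every library, was rarer in CD4 (16.5%) than in CD8 (22.9%, adjusted exact p = 0.00237) and DN T cells (21.8%, adjusted exact p = 0.0257). TRBJ2-1 was rarer in CD4 (11.98%) than in DN T cells (17.3%, adjusted exact p = 0.0103). All 7 went in the same direction in the other V genes. Their shares in CD4, CD8 and DN T cells were 6.05%, 4.81% and 3.69% for TRBJ1-2 and 6.05%, 4.75% and 3.86% for TRBJ1-3. For TRBJ2-7 they were 17.25%, 21.0% and 23.5%, and for TRBJ2-1 12.6%, 14.05% and 16.1%. Whether the shifts of TRBV2 differed from these was not tested.

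In sum over the clusters, TRBJ2 genes were used by 62.7% of in-frame TRBV2 clonotypes in CD4, 69.2% in CD8 and 72.4% among DN T cells. Other V genes gave 63.5%, 69.3% and 70.7%, so the shift between libraries was shared. Restricted to clonotypes with at least 2 reads, 635, 166 and 211 in-frame TRBV2 clonotypes were left. None of the 36 comparisons with other V genes then passed (4 had an unadjusted p under 0.05), and 2 of the 36 between libraries did, TRBJ1-2 and TRBJ1-3 in CD4 against DN T cells. TRBJ2-7 in CD4 against DN T cells also failed over clonotypes of 1 library only and without the conflicting V calls. TRBJ1-5 in CD4 T cells also failed after merging likely sequence errors, after merging by amino acid and over clonotypes of 1 library only.

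**Figure D4:**
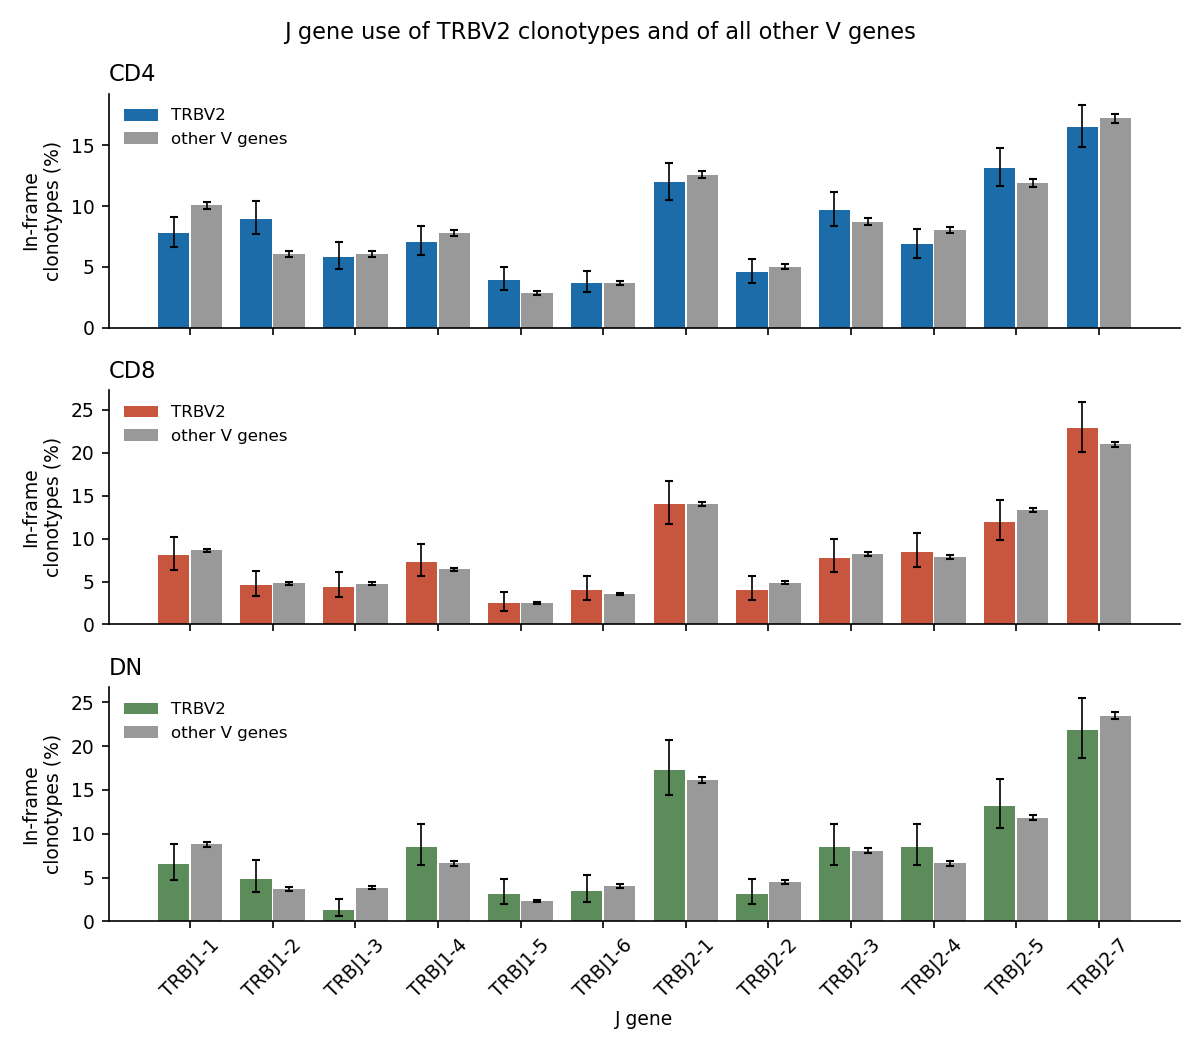
Share of in-frame clonotypes (%) that used each of the 12 J genes, for TRBV2 (coloured) and all other V genes (grey) in the CD4, CD8 and DN libraries, with Wilson 95% intervals. TRBV2 stands above the grey bar at TRBJ1-2 in CD4 T cells (8.96% against 6.05%) and below it at TRBJ1-3 in DN T cells (1.26% against 3.86%).

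The D gene could be named in most TRBV2 clonotypes. Among those with a TRBJ1 gene, TRBD1 was called in 58.0% in CD4, 57.4% in CD8 and 56.9% among DN T cells, and no D gene in 37.2%, 39.7% and 35.3%. TRBD2 lies downstream of the TRBJ1 genes, so the usual joining by deletion does not bring it to them, and its call there, in 4.75%, 2.95% and 7.84%, is a measure of calls made outside that order. Among those with a TRBJ2 gene, TRBD2 was called in 43.0%, 45.9% and 54.4% and TRBD1 in 31.5%, 28.9% and 23.7%.

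Set against other V genes, 2 of 18 comparisons of D calls passed (11.1%, beside 41.5% over all V genes), both in CD4 T cells with TRBJ2. TRBD1 was called in 31.5% against 35.4% (adjusted exact p = 0.0225), and no D gene in 25.5% against 22.4% (adjusted exact p = 0.0413). Both depended on the setting. Without the conflicting V calls neither passed, and TRBD1 with TRBJ2 in CD8 T cells did (adjusted exact p = 0.017). The share without a D gene also failed with at least 2 reads and after merging likely sequence errors. With at least 2 reads, 2 other comparisons passed in CD4 T cells with TRBJ1, TRBD1 at 51.9% against 61.8% (adjusted exact p = 0.0119) and no D gene at 43.8% against 33.3% (adjusted exact p = 0.00593).

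TRBV2 clonotypes were small. A single read was all that 1202 of the CD4 clonotypes had (64.7%), 640 of the CD8 (77.5%) and 399 of the DN clonotypes (62.5%). For other V genes the single-read shares were 61.9%, 68.8% and 56.4%, and TRBV2 was higher in all 3 libraries (adjusted exact p of 0.0404, 6.85e-07 and 0.00785). Such a difference passed in 38.6% of V gene and library pairs. The mean was 2.32 reads in CD4, 1.43 in CD8 and 3.11 among DN T cells, against 3.01, 1.86 and 4.66 for other V genes.

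The 3 libraries differed in how the TRBV2 reads were spread. The largest clonotype held 156 reads in CD4 (3.62% of TRBV2 reads, 3.10 to 4.22), 37 in CD8 (3.12%, 2.27 to 4.27) and 296 among DN T cells (14.9%, 13.4 to 16.5). The 10 largest together held 14.5%, 10.5% and 30.9%. The largest clonotypes needed to reach 50% of TRBV2 reads numbered 237 in CD4, 234 in CD8 and 44 among DN T cells. At an equal 1185 TRBV2 reads, the expected number of clonotypes was 742 in CD4, 826 in CD8 and 457 among DN T cells. Other V genes had the same order, at 1038, 1114 and 971 for 1185 of their reads. Their largest clonotypes reached 50% of reads with 6.908%, 19.02% and 3.033% of clonotypes, beside 12.76%, 28.33% and 6.897% for TRBV2. The low values in DN T cells were thus not particular to TRBV2. The single largest clonotype of other V genes held 1.15%, 2.18% and 0.714% of their reads, an order that differed from TRBV2. Only 2 TRBV2 clonotypes in CD4, CD4-1 and CD4-2, and 1 in DN T cells, CD8-2/DN-1, were among the 100 largest of their whole library, at ranks 43, 52 and 38.

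Few TRBV2 rearrangements were found in more than 1 library. A rearrangement counted as shared when its nucleotide CDR3, V gene and J gene were the same. Of the 3158, 21 were in all 3 libraries, 63 in CD8 and DN only, 35 in CD4 and DN only, and 23 in CD4 and CD8 only. The other 1778, 719 and 519 were seen in CD4, CD8 or DN T cells alone. Low sharing was not particular to TRBV2. For other V genes, 4.79% to 18.6% of a library's clonotypes were found in a given other library. For TRBV2 it was 2.37% to 13.2%, depending on the direction.

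In DN T cells the shared rearrangements held a larger share of reads than of clonotypes, as they did for other V genes. The 84 of 638 DN clonotypes with a match in the CD8 library (13.2%, 10.8 to 16.0) held 975 of 1986 DN TRBV2 reads (49.1%, 46.9 to 51.3), beside 66.7% for other V genes. The 56 also found in CD4 T cells (8.78%, 6.82 to 11.2) held 705 reads (35.5%), beside 49.5% for other V genes. The 21 in all 3 libraries alone held 631 reads (31.8%), of which 296 were of the single clonotype CD8-2/DN-1. Conversely, 10.2% of CD8 clonotypes were found in DN and 5.33% in CD4 T cells, and of CD4 clonotypes 3.02% were found in DN and 2.37% in CD8 T cells.

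Set against other V genes, the shares seen from the CD4 side follow in part from the choice of TRBV2 for its many CD4 clonotypes, which are the denominator, and are given without a test. They were 2.37% against 8.97% for a match in CD8 and 3.02% against 8.61% for a match in DN T cells. From the other side, the same 44 and 56 shared rearrangements were 5.33% against 4.79% of CD8 clonotypes and 8.78% against 8.95% of DN clonotypes. There the many CD4 clonotypes are the set searched, so the choice of TRBV2 enters again and these values too are given without a test. Between CD8 and DN T cells, the 84 shared rearrangements were 10.2% of TRBV2 clonotypes against 9.56% seen from CD8 (adjusted exact p = 0.594). Seen from DN T cells they were 13.2% against 18.6%, which passed (adjusted exact p = 0.000783) but not with at least 2 reads (adjusted exact p = 0.072). The CD8 library that was searched held 1.02% TRBV2 clonotypes, beside 1.52% in the DN library. The effect of this on the match was not tested. Over all V genes and all 6 directions, 63.2% of such comparisons passed.

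The shared start of TRBV2 and TRBV5 enters here. Of the CD4 TRBV2 CDR3 sequences that were present in the CD8 library, 54 of 98 were listed there under another V gene, 42 of them under TRBV5. In DN T cells 22 of 78 were, 15 of them under TRBV5. Matched by CDR3 alone, whatever the V and J gene, 5.28% of CD4 TRBV2 clonotypes were found in CD8 and 4.20% among DN T cells. In that count 96 TRBV2 clonotypes of DN T cells had a match in the CD8 library and 61 in the CD4 library.

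The named clones were chosen for their reads, so those reads are a description. CD8-2/DN-1 had 296 reads in DN, 25 in CD8 and 14 in CD4 T cells, and was the largest of DN and the second largest of CD8 T cells. DN-3/CD8-7 had 43 reads in DN, 7 in CD8 and 0 in CD4 T cells. DN-5/CD8-10 had 37, 7 and 1 reads in the same order. All 3 carry 2 names because they were among the 10 largest of both DN and CD8 T cells.

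CD8-4/DN-6 had 32 reads in DN, 9 in CD8 and 2 in CD4 T cells, and CD8-5/DN-7 had 31, 8 and 2. DN-2 had 60, 4 and 3 reads, and DN-4 had 39, 6 and 2. All 7 of the largest DN clonotypes were thus present in CD8 T cells, and 6 of the 7 in CD4 T cells. This was not particular to TRBV2 as far as looked up. Of DN clonotypes with at least 2 reads, 25.5% of TRBV2 and 32.3% of other V genes were found in CD8 T cells. In CD4 T cells 14.2% and 15.3% were found. CD8-1, the largest of CD8 T cells with 37 reads, was in neither other library, which allows a share of up to 0.00224% in CD4 and 0.00154% in DN T cells (3 reads of the total). CD8-3 had 9 reads in CD8, 1 in CD4 and 0 in DN T cells.

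The large CD4 clones had few reads in the other libraries, although several of them were present there. TRBV2 was chosen for its larger share in CD4 T cells, and these clones for their CD4 reads. Their few reads elsewhere, also beside the DN clones, thus follow in part from the choice and are a description. CD4-1 had 156 reads in CD4, 1 in CD8 and 0 among DN T cells, and CD4-2 had 139, 1 and 1. CD4-3 had 70, 1 and 0 reads, CD4-4 had 63, 1 and 3, and CD4-5 had 41, 0 and 0. Of the 20 largest CD4 TRBV2 clonotypes, 6 were found in CD8, with 1 read each, and 4 in DN T cells, with 6 reads in all. Among the 20 largest of DN T cells, 16 had a match in the CD8 library, with 86 reads, and 10 in the CD4 library, with 32 reads. Only 9 of the 20 largest CD8 clonotypes were found in DN T cells, where 8 of them had a larger share of reads than in CD8 T cells. The largest clonotypes of other V genes were not looked up in this way. Whether single reads in a second library were carried over between samples was not tested.

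**Figure D5:**
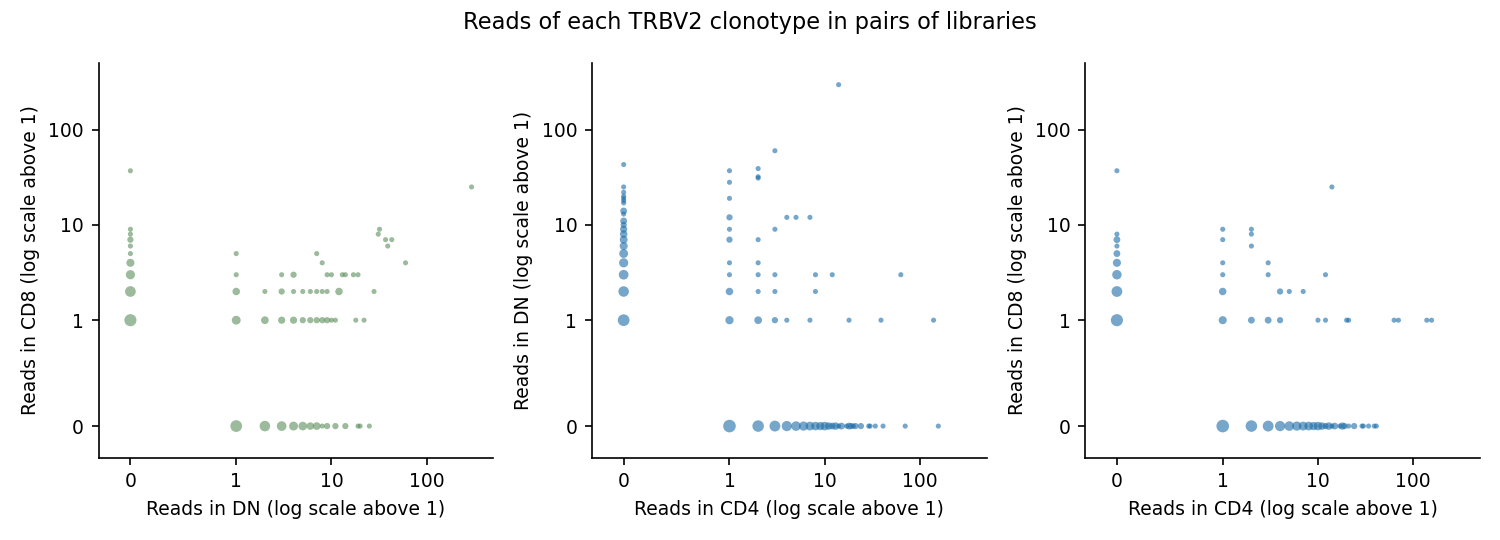
Reads of each TRBV2 clonotype in DN against CD8 (left), CD4 against DN (middle) and CD4 against CD8 T cells (right), on axes with a log scale above 1, where the size of a point grows with the number of clonotypes at that position. The clonotype with 296 reads in DN and 25 in CD8 T cells is at the upper right of the left plot, and the large CD4 clonotypes lie at 0 to 3 reads in the other libraries.

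The same amino acid CDR3 was seldom made by several nucleotide sequences. The 2925 distinct in-frame TRBV2 rearrangements encoded 2816 amino acid CDR3s with their J gene, of which 100 (3.55%) came from at least 2 nucleotide sequences and 9 from 3, the most seen. For other V genes, which have more clonotypes and so more chances of a match, the share was 8.73%. These 100 loops were 14.3 ± 1.44 residues long (mean ± SD), beside 14.7 ± 1.48 for the 2716 made by 1 sequence. An example with TRBJ1-1 is shown, with capitals at the 5 positions where the 3 sequences differ.
CD4, 2 reads: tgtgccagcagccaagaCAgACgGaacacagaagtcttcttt
CD8, 1 read: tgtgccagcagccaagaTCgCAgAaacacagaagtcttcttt
DN, 3 reads: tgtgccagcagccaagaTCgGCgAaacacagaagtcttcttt
Each of the 3 was found in a different library, and all 3 keep the whole V start and differ within the junction. By amino acid CDR3 and J gene, 63 TRBV2 loops were shared by CD4 and CD8, 62 by CD4 and DN and 83 by CD8 and DN T cells.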

How the data were processed

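MRL.lpr spleen CD4, CD8 and DN T cells (1 library each) were profiled by the authors with a Takara SMARTer kit for mouse TCRα/β, and the reads were aligned, assembled and exported with MiXCR; its version, settings and filters are not given in the sources used here. The deposited tables give for each clonotype a count of reads, not normalized, and the fraction of its table's reads. Only the count was used; the deposited fraction equalled the count over the table total. Clonotypes with TRBV and TRBJ best hits entered (133667, 150874 and 194290 reads in CD4, CD8 and DN). A count of 0 allows a share of up to 0.00224%, 0.00199% and 0.00154% (3 reads of the total). No filter on reads or frame was applied, except that J, D and CDR3 length used in-frame clonotypes.

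Shares carry 95% Wilson intervals. Two-sided Fisher's exact tests compared TRBV2 clonotypes with all other V genes of a library, or between libraries, with Benjamini-Hochberg adjustment over the same tests for all 19 V genes with at least 100 clonotypes in every library. Clonotypes are not replicates, and those sharing a cell lineage or an error are not independent. V starts were extended while over 50% of matching clonotypes kept the next base, and J ends while over 65% did; no germline sequence was used. Named clonotypes were the 5 with most reads in each library, those in the 10 largest of more than 1, the most-read out-of-frame ones, and 3 V genes nearest in pattern; one of the amino acid CDR3s made by most nucleotide sequences is printed. The members and lists were chosen with earlier results of these data known. Alternatives were a minimum of 2 reads, in-frame clonotypes, merging of 1-mismatch neighbours with 10 times fewer reads, merging by amino acid, equal depth, leaving out the 10 largest or shared clonotypes, CDR3 matching alone, and, added after seeing the data, leaving out conflicting V calls, 1-base insertions and deletions, and V genes under 60% in frame over all libraries or in any library. The functions were tested on simulated data. Python 3.11.15, pandas 2.3.3, NumPy 2.4.6, SciPy 1.17.1 and matplotlib 3.10.9 were used.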

Additional observations from a re-analysis of the deposited data

Results flagged for a closer look

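The in-frame share of TRBV2 clonotypes minus that of all other V genes went in opposite directions in the subsets, being 2.32 percentage points higher in CD4 T cells, with a difference of -2.03 points in CD8 and of -4.27 points in DN T cells. With 1 library per subset, each passed its own test, but that of CD4 T cells was 1.23 points and did not pass without the V genes under 60% in frame in any library. The difference between the subsets in this contrast was not tested.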

How the results depend on the processing

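Of 172 values of 31 results recomputed under an alternative, 146 led to the same call, or stayed within the interval or within 1.5 times. No result that passed in either setting turned in direction, but a turn where neither passed was counted as the same. Without the 10 largest TRBV2 clonotypes of each library, 4.29% of CD8 clonotypes were found in CD4 T cells, in place of 5.33%. In DN T cells 9.19% were found, in place of 10.2%. Both went from above the other V genes (4.79% and 9.56%) to below them. For CD4, CD8 and DN T cells in turn, the TRBV2 read share was 2.94%, 0.574% and 0.930% with at least 2 reads, 2.77%, 0.704% and 0.709% without the 10 largest clonotypes, and 4.07%, 0.878% and 1.60% over clonotypes of 1 library only. In CD4 T cells it was 3.08% without conflicting V calls. The share of clonotypes was 3.85%, 0.737% and 1.31% with at least 2 reads, and in CD4 T cells 4.39% after merging by amino acid and 4.55% over clonotypes of 1 library only. By reads, the in-frame share was 96.6% in CD4 and 91.2% in DN T cells. Against other V genes, the CD4 in-frame share (94.4%) did not pass once V genes under 60% in frame in any library were left out (adjusted exact p = 0.0564). With at least 2 reads, the in-frame shares of CD4 (96.9%) and CD8 T cells differed (adjusted exact p = 0.000295) and those of CD8 (89.2%) and DN T cells did not pass (adjusted exact p = 0.981). With the same minimum, short loops in DN T cells (1.42%, adjusted exact p = 0.0621) and DN clonotypes found in CD8 T cells (13.8%, adjusted exact p = 0.072) did not pass either. The calls fell from 4 to 0 of 36 for J use against other V genes (4 at an unadjusted p under 0.05), from 7 to 2 for J use between libraries, and from 2 to 1 for length between libraries. Calls of D use went from 2 to 1, in CD8 T cells, without conflicting V calls. A minimum of 2 reads leaves 635, 166 and 211 in-frame TRBV2 clonotypes to test; otherwise the cause was not tested. Depth limits every library, with 27.9%, 54.0% and 20.1% of TRBV2 reads in single-read clonotypes of CD4, CD8 and DN T cells. No paired analysis was possible because each subset had 1 library.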
